A study of Rattus norvegicus with 17 samples.

Results

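The paraoxonases, Pon1, Pon2 and Pon3, were followed in the liver of 17 rats, as the probe sets whose platform gene symbol is one of these names. The array carried 4 such probe sets among 31099, and each gene was read from its brightest probe set, judged by the mean of the 17 arrays, so that the paraoxonases were 3 of 14217 genes. Pon1 was read from probe set 1371050_at, Pon2 from 1375848_at and Pon3 from 1384544_at. The rats were male Sprague Dawley animals from Harlan, given isopropylated phenol phosphate (IPP, an aryl organophosphate flame retardant and plasticizer) in corn oil by gavage once a day on 4 days, and pieces of the left liver lobe were taken the day after. Corn oil alone was given to 5 rats (vehicle), and 76.5, 153, 305.5 and 611 mg/kg body weight per day to 3 rats each. In molar terms the doses ran from 0.169 up to 1.35 mmol/kg. No genetic change, second agent or age was given in the labels, and each rat gave 1 array.

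Paraoxonases are calcium-dependent hydrolases that open lactones and, in the case of PON1, also cleave organophosphate esters such as paraoxon, after which the family is named. PON1 and PON3 are made by hepatocytes, secreted, and carried in blood on high density lipoprotein (HDL), where they limit lipid oxidation. PON2 stays inside cells, is made in most tissues, and is known mainly for its lactonase and antioxidant activity.

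The 3 genes follow one another on chromosome 4 in the order Pon1, Pon3, Pon2 in the gene reference (GRCr8), all on the minus strand. No other named gene lies between them, and genes with only a LOC symbol were left out of this order. Their upstream sequences are shown for description, and whether they bear on the values given further on was not tested. Each is the 250 bases before the annotated start, from RefSeq (GRCr8), written 5′ to 3′ on the gene's own strand, and all 3 members were matched by symbol. Capitals mark a GC box (GGGCGG, bound by Sp1-type factors), a CCAAT box (CCAAT) or the core of the xenobiotic response element that the aryl hydrocarbon receptor binds (GCGTG), searched on both strands.
Pon1, chr4:34287861-34288110, minus strand: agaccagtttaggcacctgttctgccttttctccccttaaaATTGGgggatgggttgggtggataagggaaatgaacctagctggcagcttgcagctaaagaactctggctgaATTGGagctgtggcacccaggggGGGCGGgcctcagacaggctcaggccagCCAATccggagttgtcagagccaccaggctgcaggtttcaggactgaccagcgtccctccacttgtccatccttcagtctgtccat
Pon3, chr4:34350245-34350494, minus strand: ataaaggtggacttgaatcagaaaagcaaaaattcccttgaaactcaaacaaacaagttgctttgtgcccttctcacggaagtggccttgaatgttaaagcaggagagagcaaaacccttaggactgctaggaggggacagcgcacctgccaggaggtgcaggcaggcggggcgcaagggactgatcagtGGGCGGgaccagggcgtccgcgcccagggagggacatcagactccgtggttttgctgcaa
Pon2, chr4:34391685-34391934, minus strand: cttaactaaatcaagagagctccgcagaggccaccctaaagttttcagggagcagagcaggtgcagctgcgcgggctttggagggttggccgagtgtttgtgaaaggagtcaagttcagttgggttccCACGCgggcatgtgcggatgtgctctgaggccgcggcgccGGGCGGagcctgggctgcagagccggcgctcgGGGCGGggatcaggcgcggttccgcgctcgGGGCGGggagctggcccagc
The Pon1 window held 1 GC box, 114 bases before the start, and 3 CCAAT boxes. The Pon3 window held 1 GC box, 60 bases before the start, and no CCAAT box. The Pon2 window held 3 GC boxes, the nearest 20 and the farthest 82 bases before the start, and 1 xenobiotic response element core, 122 bases before it. Guanine and cytosine made up 56.4% of the Pon1, 54.8% of the Pon3 and 66.4% of the Pon2 window, against a median of 51.2% over 33469 windows of the same length. Of all those windows 30.5% held a GC box, 34.0% a CCAAT box and 25.9% a GCGTG core. The nuclear receptor half-site AGGTCA (in 14.1% of all windows) and the TATA box TATAAA (in 12.9%) were in none of the 3. The motifs do not overlap in these windows, and a match of letters is a description, not a bound site.

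Values are on the log2 scale of the deposited table, where a difference of 1 is a 2-fold change, and ran from 2.61 to 15.4. Array medians lay between 6.29 and 6.40. Arrays of 611 mg/kg rat 2 and 76.5 mg/kg rats 2 and 3 stood apart, with median correlations to the other arrays of 0.984 to 0.987 against 0.991 to 0.993 for the other 14 arrays. The 3′ minus 5′ difference of the GAPDH control probe sets, a sign of RNA quality, was 2.89 on the array of 611 mg/kg rat 2 and 0.93 to 1.56 on the other 16. Of 11 measured hepatocyte markers 10 lay above the 90th percentile of every array. With 3 to 5 arrays a group, their number sets the precision of each difference given here.

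The main probe sets of Pon1, Pon2 and Pon3 each lay above the 90th percentile on all 17 arrays, so none was limited by background. Their spread was also small beside that of all genes, but was not set against genes of like brightness. Whether signal this high narrows the spread was not tested. Their standard deviation between rats of one group, over 12 residual degrees of freedom, was 0.064 for Pon1, 0.055 for Pon2 and 0.10 for Pon3, against a median of 0.15 over all genes. Smaller values were found for 0.809%, 0.331% and 12.4% of genes. Over all rats Pon1 spanned 0.33, Pon2 0.36 and Pon3 0.42 on the log2 scale, that is 1.26-, 1.28- and 1.34-fold from the lowest to the highest rat.

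At no dose did a paraoxonase pass the test against vehicle, which was made in a limma model of every gene and array with Benjamini-Hochberg adjustment over all 14217 genes and a call at adjusted p under 0.05. The count was 0 of 3 at 76.5 mg/kg, where 0.267% of all genes were called, 0 of 3 at 153 mg/kg (0.746%), 0 of 3 at 305.5 mg/kg (2.22%) and 0 of 3 at 611 mg/kg (7.46%). With 3 members and these background shares, a count of 0 is near what the background gives. At an unadjusted p under 0.05 the member was Pon2 at 76.5 mg/kg, Pon3 at 153 mg/kg, Pon2 at 305.5 mg/kg, and both Pon1 and Pon3 at 611 mg/kg. Over all 14217 genes 1527, 1688, 1920 and 3434 had such a p at the 4 doses, in that order. Since the tissue is bulk liver, fewer cells of a type and less RNA per cell cannot be told apart.

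**Figure D1:**
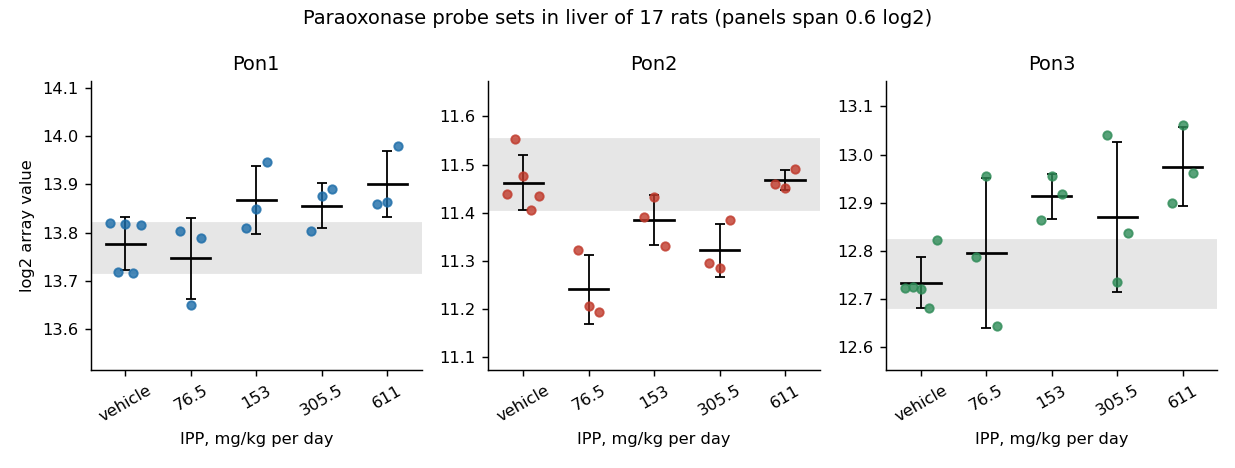
Log2 array value (vertical axis) of the Pon1, Pon2 and Pon3 probe sets in each rat, by daily amount of IPP (horizontal axis). Points are rats, bars the mean with its standard deviation, and the grey band the range of the 5 vehicle rats. At 611 mg/kg the 3 rats lie above the band for Pon1 and Pon3 and inside it for Pon2.

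Pon1, the secreted paraoxonase that hydrolyses paraoxon, stayed within 1.26-fold over all rats. The vehicle rats gave 13.82, 13.72, 13.82, 13.72 and 13.82. The rats at 76.5 mg/kg gave 13.80, 13.65 and 13.79, so that 1 lay under the vehicle range and the others inside it. The rats at 153 mg/kg gave 13.81, 13.85 and 13.95, those at 305.5 mg/kg 13.80, 13.88 and 13.89, and those at 611 mg/kg 13.86, 13.86 and 13.98. At 153 and 305.5 mg/kg 2 of 3 rats exceeded every vehicle rat, and at 611 mg/kg all 3 did, as held for 11.5% of all genes in that direction.

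For Pon1 the 5 vehicle rats averaged 13.78 ± 0.06 and the 3 rats at 611 mg/kg 13.90 ± 0.07 (SD). The fitted difference at 611 mg/kg was 0.12 ± 0.058 (SE, limma, Benjamini-Hochberg adjusted p = 0.201), or 8.93% higher with a 95% interval from 0.132% to 18.5% higher. At 76.5, 153 and 305.5 mg/kg the differences were -0.031, 0.091 and 0.079, each ± 0.058 (adjusted p = 0.907, 0.556 and 0.616). The widest bound of any of these 4 intervals was thus 1.18-fold. Over the rank of the groups (0 for vehicle to 4 for 611 mg/kg) the slope was 0.034 ± 0.013 log2 units per step (adjusted p = 0.121).

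The other Pon1 probe set, 1393941_at, lay beneath the array median on all 17 arrays, between 5.77 and 6.18. The 5 vehicle rats averaged 5.93 ± 0.17 there and the 3 rats at 611 mg/kg 5.95 ± 0.17 (SD). Its differences from vehicle were 0.11, -0.11, 0.085 and 0.018 in order of dose, each ± 0.10, with adjusted p from 0.756 to 0.938 in a limma fit over 20826 probe sets. It differed in sign from the brighter probe set at 76.5 and 153 mg/kg. The mean of both probe sets therefore has the other sign from the brighter one at these doses, 0.040 and -0.0090.

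Pon3, which is carried on HDL beside PON1 and acts mainly on lactones, had the largest fitted difference of the family at 611 mg/kg. The vehicle rats gave 12.72, 12.72, 12.72, 12.68 and 12.82. Those at 76.5 mg/kg gave 12.79, 12.96 and 12.64, one above and one below the vehicle range. Those at 153 mg/kg gave 12.86, 12.96 and 12.92, all above every vehicle rat, where 8.3% of all genes were so placed. At 305.5 mg/kg the values were 13.04, 12.74 and 12.84, with 2 of 3 above, and at 611 mg/kg 12.90, 13.06 and 12.96, again all above (11.5% of all genes).

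From 12.73 ± 0.05 (SD, n = 5) in vehicle, the Pon3 mean came to 12.97 ± 0.08 (SD, n = 3) at 611 mg/kg. The fitted difference was 0.24 ± 0.079 (SE, limma, adjusted p = 0.0716), or 1.18-fold with a 95% interval from 1.05 to 1.33. It was not called with all arrays, and 5 of 30 alternatives called it, among them the fits without 76.5 mg/kg rat 2 (adjusted p = 0.0391) or rat 3 (adjusted p = 0.0417). At the doses beneath it the differences were 0.062, 0.18 and 0.14, each ± 0.079 (adjusted p = 0.841, 0.377 and 0.485). The last ran from 0.052 without 305.5 mg/kg rat 1 to 0.20 without rat 2.

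The slope of Pon3 over group rank was the only call in the family among the fits of single genes, where 6.74% of all genes were called. It was 0.057 ± 0.017 log2 units per step (limma, adjusted p = 0.0493), and 3.96% of genes were called with a rising slope. The call lay close to the threshold and was lost in 14 of 17 fits that left out 1 rat. It was kept without 76.5 mg/kg rat 2, 76.5 mg/kg rat 3 or 305.5 mg/kg rat 2. The 14 rats were all 5 vehicle rats, 76.5 mg/kg rat 1, the 3 rats at 153 mg/kg, 305.5 mg/kg rats 1 and 3 and the 3 rats at 611 mg/kg. Across those 17 fits the slope itself stayed between 0.050 and 0.063. Without vehicle rat 5 the slope was larger, 0.061, and the call was still lost (limma, adjusted p = 0.0609). Without 611 mg/kg rat 2, the highest Pon3 value of all, it was 0.050 (adjusted p = 0.131). A fit with the replicate number as a block gave 0.058 (adjusted p = 0.149). Over the treated rats alone the slope was 0.049 ± 0.031 (adjusted p = 0.591).

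**Figure D2:**
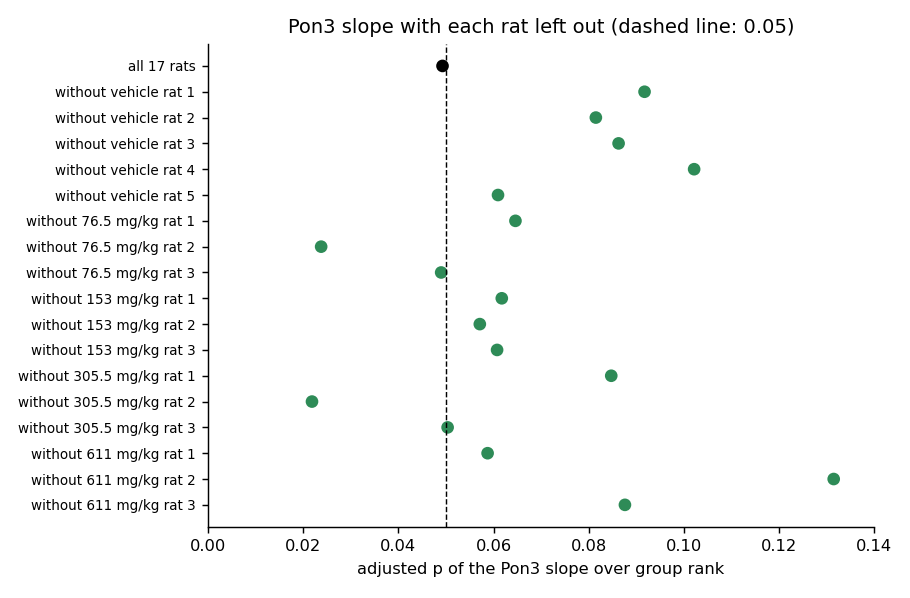
Adjusted p (horizontal axis) of the Pon3 slope over group rank with all 17 rats (black, 0.0493) and with each rat left out (green), with the threshold of 0.05 dashed. Only 3 of the 17 fits with a rat left out stay under the threshold, and the highest value is 0.131 without 611 mg/kg rat 2.

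Within groups Pon1 and Pon3 went opposite ways with the RNA quality measure. After each group mean was taken off, the correlation with the GAPDH 3′ minus 5′ difference over 17 arrays was -0.50 for Pon1, 0.53 for Pon3 and 0.011 for Pon2. Without the array of 611 mg/kg rat 2 it was -0.71, 0.60 and 0.22 over 16 arrays. Each correlation sets values of the same array side by side and is a description. With the control difference as a covariate the Pon3 slope was 0.052 ± 0.016 (limma, adjusted p = 0.0502).

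Pon2, the intracellular paraoxonase, was the member whose values lay under vehicle. The vehicle rats gave 11.44, 11.55, 11.48, 11.41 and 11.43. The rats at 76.5 mg/kg gave 11.32, 11.21 and 11.19, all beneath every vehicle rat, as held for 3.16% of all genes in that direction. At 153 mg/kg the values were 11.39, 11.43 and 11.33, with 2 of 3 beneath. At 305.5 mg/kg they were 11.30, 11.28 and 11.39, all beneath (7.34% of all genes), and at 611 mg/kg 11.46, 11.45 and 11.49, all inside the vehicle range. The dose order was thus not followed, with the lowest mean at the smallest amount and the vehicle level at the largest. That lowest mean rests on 76.5 mg/kg rats 2 and 3, whose arrays were among the 3 with lower correlations to the others. Rat 1 of that group gave 11.32, level with the mean of 11.32 at 305.5 mg/kg.

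The 5 vehicle rats averaged 11.46 ± 0.06 for Pon2 and the 3 rats at 76.5 mg/kg 11.24 ± 0.07 (SD). The fitted difference there was -0.22 ± 0.065 (SE, limma, adjusted p = 0.202), or 0.858-fold with a 95% interval from 0.780 to 0.943. The differences were -0.077 at 153 mg/kg, -0.14 at 305.5 mg/kg and 0.0053 at 611 mg/kg, each ± 0.065 (adjusted p = 0.669, 0.357 and 0.970). The last of these changed sign under median centring, -0.042, and under a repeated quantile normalization, -0.038, so that it has no direction. None of the 30 alternatives called the value at 76.5 mg/kg (limma, smallest adjusted p = 0.0830). Over these alternatives that value ran from -0.26 to -0.14, and from -0.26 to -0.20 where 1 rat was left out. The slope was -0.0008 over all rats and 0.062 ± 0.027 (adjusted p = 0.426) without the vehicle rats.

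**Figure D3:**
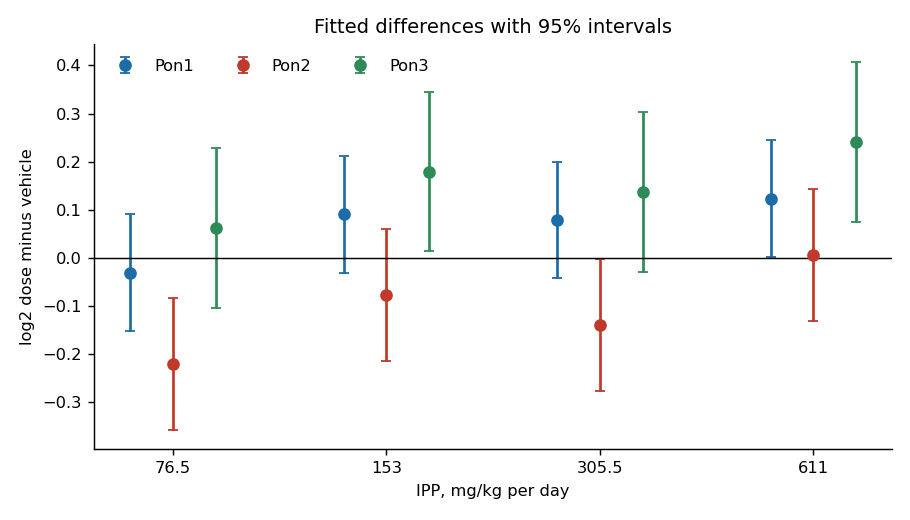
Fitted log2 difference of each dose from vehicle (vertical axis) with its 95% interval for Pon1, Pon2 and Pon3, by daily amount of IPP (horizontal axis). Points for Pon3 lie above and those for Pon2 below 0 at 76.5, 153 and 305.5 mg/kg, and no interval reaches beyond 0.41 in either direction.

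Between neighbouring doses no member was called. The steps from 76.5 to 153 mg/kg were 0.12 for Pon1, 0.14 for Pon2 and 0.12 for Pon3 (limma, adjusted p = 0.661, 0.638 and 0.768), with 0% of all genes called and 1134 of them at an unadjusted p under 0.05. From 153 to 305.5 mg/kg the steps were -0.012, -0.063 and -0.042 (adjusted p from 0.808 to 0.969, 0% of all genes called, 1338 at an unadjusted p under 0.05). From 305.5 to 611 mg/kg they were 0.045, 0.15 and 0.10 (adjusted p from 0.335 to 0.755, 0.324% called). No member had an unadjusted p under 0.05 in any of the 3 steps. Averaged over the 4 doses, the differences from vehicle were 0.066 ± 0.042 for Pon1, -0.11 ± 0.047 for Pon2 and 0.15 ± 0.057 for Pon3 (adjusted p = 0.447, 0.233 and 0.147, 4.01% of genes called). Array weights made the last of these a call (adjusted p = 0.0390).

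The differences of Pon2 from Pon1 and Pon3 within the same rat separated treated from vehicle rats, as no member alone did. Pon2 lay lower in relation to both Pon1 and Pon3 in every treated rat than in any vehicle rat. The members that made up this shift were not the same at each dose. At 76.5 mg/kg the fitted differences from vehicle were -0.031 for Pon1, -0.22 for Pon2 and 0.062 for Pon3. At 611 mg/kg they were 0.12, 0.0053 and 0.24, so Pon2 itself was at the vehicle level there. None of these values was called with limma, where p was adjusted over 14217 genes. The differences between members were tested by exact permutation and adjusted over 6 tests, so the p-values of the 2 methods cannot be compared. Nor was such a separation particular to the paraoxonases. Pon2 minus another gene was lower in all 12 treated rats than in any vehicle rat for 3.1% of 14216 genes. Each rat's value here is the log2 value of one member minus that of another on the same array, so only its change, and not its size, has a meaning.

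Pon1 minus Pon2 was 2.32 ± 0.09 (SD, n = 5) in vehicle, from 2.16 to 2.38. It was 2.51 ± 0.08 at 76.5 mg/kg, 2.48 ± 0.12 at 153 mg/kg, 2.53 ± 0.05 at 305.5 mg/kg and 2.43 ± 0.05 at 611 mg/kg (SD, n = 3 each), and the lowest treated rat gave 2.40. All 12 treated rats lay above all 5 vehicle rats. The treated mean exceeded the vehicle mean by 0.17, and the two-sided exact permutation test gave p = 0.000323, the smallest that its 6188 splits allow (Benjamini-Hochberg adjusted p = 0.00097 over 6 tests).

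Pon2 minus Pon3 was -1.27 ± 0.08 (SD, n = 5) in vehicle, from -1.39 to -1.17. It was -1.56 ± 0.17 at 76.5 mg/kg, -1.53 ± 0.06 at 153 mg/kg, -1.55 ± 0.17 at 305.5 mg/kg and -1.51 ± 0.09 at 611 mg/kg (SD, n = 3 each), with no treated rat above -1.44. All 12 treated rats lay below all vehicle rats, and the means differed by -0.26 (exact permutation p = 0.000323, adjusted p = 0.00097). The shift was already present at the smallest amount, -0.28, and was -0.24 at the largest.

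Pon1 minus Pon3 did not separate the groups. Vehicle rats gave 0.99 to 1.10 and treated rats 0.69 to 1.14, with 6 of 12 below and 2 of 12 above the vehicle range (difference -0.089, exact permutation p = 0.199, adjusted p = 0.199). This test was passed after a repeated quantile normalization, where the difference was -0.15 (adjusted p = 0.0349). With the 611 mg/kg rats alone the exact test allows no p under 0.0357 in 56 splits. In that exact test Pon1 minus Pon2 (0.12) and Pon2 minus Pon3 (-0.24) reached this value (adjusted p = 0.0536 each), and Pon1 minus Pon3 gave -0.12 (exact permutation p = 0.107, adjusted p = 0.129).

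Both separations share Pon2 and the same 5 vehicle rats, so they are not independent of each other. As a background, Pon2 minus any one of the other 14216 genes placed all 12 treated rats below the vehicle range for 3.1% of those genes and above it for 0.141%. Pon1 minus any other gene placed them above for 0.725%, and Pon3 minus any other gene for 1.51%. Of single genes, 0.549% were above the vehicle range in all 12 treated rats and 0.542% below it, and no paraoxonase was among them. Leaving out each rat in turn kept Pon1 minus Pon2 at 0.14 to 0.19 and Pon2 minus Pon3 at -0.29 to -0.24, with adjusted p of at most 0.0033 in both. Without the 3 arrays that stood apart the differences were 0.18 and -0.24, with 9 of 9 treated rats outside the vehicle range in each (exact permutation p = 0.000999, the smallest of 2002 splits).

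The RNA quality measure also went with these differences, with correlations of -0.40 for Pon1 minus Pon2 and -0.46 for Pon2 minus Pon3 over 17 arrays after group means were taken off. Without the array of 611 mg/kg rat 2 they were -0.70 and -0.42 over 16 arrays. Pon1 minus Pon3 went with it most strongly, at -0.63 over 17 arrays and -0.78 over those 16. With each member's within-group slope on the GAPDH control difference removed, Pon1 minus Pon2 was 0.17 and Pon2 minus Pon3 -0.27. All 12 treated rats again lay outside the vehicle range in each of these 2 (exact permutation p = 0.000323). With the mean over both Pon1 probe sets, Pon1 minus Pon2 was 0.15 (adjusted p = 0.0475).

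**Figure D4:**
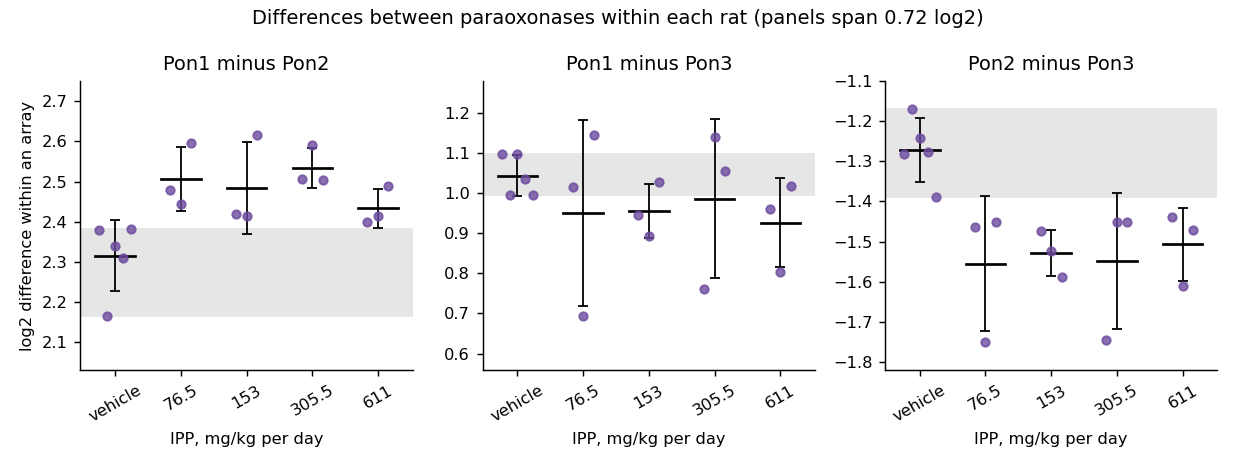
Log2 difference between paraoxonases on the same array (vertical axis) in each rat, by daily amount of IPP (horizontal axis). Points are rats, bars the mean with its standard deviation, and the grey band the range of the 5 vehicle rats. All 12 treated rats lie above the band for Pon1 minus Pon2 and below it for Pon2 minus Pon3, while Pon1 minus Pon3 overlaps.

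Correlations between members over the 17 arrays were weak. Pearson's r was 0.24 for Pon1 and Pon2, 0.31 for Pon1 and Pon3 and 0.025 for Pon2 and Pon3. With group means taken off, it was 0.062, -0.34 and -0.0069. The arrays share the study's groups, and these values are descriptions.

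The genes whose log2 values followed each member most closely over the 17 arrays were not other paraoxonases. For Pon1 they were Slmap (r = 0.87), Htatsf1 (0.86), Rida (0.84), C1s (0.84) and Snx9 (0.83). For Pon2 they were Marchf8 (r = 0.88), Aldh3a2 (0.86), Afmid (0.84), Dusp3 (0.84) and Selenoi (0.83). For Pon3 they were Meox2 (r = 0.94), Cbr4 (0.93), Stn1 (0.93), Cxcl11 (0.92) and Gyg1 (0.92). These genes were picked as the highest r among all genes over 17 arrays, so high values follow in part from the choice. After group means were taken off the closest, picked in the same way, were Wnt8b (0.89), Cyp2t1 (0.87) and Cd164 (0.85) for Pon1. Wnt8b averaged 4.10 in vehicle and 4.02 at 611 mg/kg, far under the array medians. By the same measure the closest were Aldh3a2 (0.85), Plce1 (0.83) and Rufy3 (0.83) for Pon2, and Rrs1-ps9 (0.96), LOC100912167 (0.95) and Tle2 (0.95) for Pon3. Aldh3a2, a fatty aldehyde dehydrogenase gene, was the one gene among these lists that was close to a member by both measures.

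Genes beside the paraoxonases on chromosome 4 were read for comparison. The nearest named genes were Ppp1r9a, Ckap2-ps1 and Peg10 on the Pon1 side and Asb4, Vil1-ps1 and Pdk4 on the Pon2 side, of which Ppp1r9a, Peg10 and Pdk4 had a probe set of their own. Pdk4, which encodes an inhibitor of pyruvate dehydrogenase, fell at the 2 largest amounts. It averaged 10.54 ± 0.29 (SD, n = 5) in vehicle, 9.09 ± 0.18 at 305.5 mg/kg and 9.29 ± 0.59 at 611 mg/kg (SD, n = 3 each). The fitted differences were -1.45 ± 0.28 (limma, adjusted p = 0.00833) and -1.25 ± 0.28 (adjusted p = 0.0113), against -0.14 and 0.0053 for Pon2. The first call was lost without 305.5 mg/kg rat 2 or 3 and the second without 611 mg/kg rat 2 or 3. Ppp1r9a and Peg10 lay beneath the array medians and gave -0.14 and -0.16 at 611 mg/kg (adjusted p = 0.418 and 0.350).

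The apolipoproteins of HDL, the particle on which PON1 and PON3 circulate, were nearly level in the median at 611 mg/kg. None of 13 measured members passed the test at 611 mg/kg with limma, where 7.46% of all genes did, and 2 had an unadjusted p under 0.05, as did 3434 of all 14217 genes (median difference -0.0014, against -0.0029 over all genes). Apoa1, the main HDL protein, gave 0.10 ± 0.064 (adjusted p = 0.334) and Apoa2 0.13 ± 0.051 (adjusted p = 0.142). At 305.5 mg/kg 1 of 13 was higher, where 2.22% of all genes were called in either direction. This was Apom, the sphingosine-1-phosphate carrier of HDL (0.28 ± 0.068, adjusted p = 0.0414). Of 30 alternatives 15 ended this call, 11 of them by leaving out a rat: vehicle rat 1, 2 or 3, any rat at 153 or 305.5 mg/kg, or 611 mg/kg rat 1 or 3. At 611 mg/kg Apom gave 0.22 ± 0.068 (limma, adjusted p = 0.0551). Its slope over group rank was 0.078 ± 0.019 (limma, adjusted p = 0.0176), the 1 call among 13 slopes, where 6.74% of all genes were called. That count stayed at 1 in each fit that left out 1 rat, and ran from 0 to 4 over all alternatives.

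Of 8 measured genes that load and remodel lipoproteins, 3 fell and 0 rose at 611 mg/kg, where 7.46% of all genes were called (median -0.24). At 305.5 mg/kg 2 of 8 fell, where 2.22% of all genes were called (median -0.30, against 0.0070 over all genes). Lpl, lipoprotein lipase, fell by 1.29 ± 0.20 at 305.5 mg/kg (limma, adjusted p = 0.00243) and fell by 0.98 ± 0.20 at 611 mg/kg (adjusted p = 0.008). Pltp, the phospholipid transfer protein that reshapes HDL, fell by 0.74 ± 0.15 at 611 mg/kg (adjusted p = 0.00658), and Lipc, hepatic lipase, fell by 0.30 ± 0.081 (adjusted p = 0.0341). Pctp, a phosphatidylcholine carrier, fell by 0.73 ± 0.18 at 305.5 mg/kg (adjusted p = 0.0390). Lpl and Pltp kept their calls in every alternative run. Lipc kept it in 19 of 30, and not without vehicle rat 1, 3 or 5 or any rat at 611 mg/kg. Pctp kept it in 16 of 30, and not without any one vehicle rat, 153 mg/kg rat 1 or 2, any rat at 305.5 mg/kg, or 611 mg/kg rat 3. Lcat, the enzyme that matures HDL, gave -0.19 ± 0.098 at 611 mg/kg (adjusted p = 0.257) and Scarb1, its receptor, -0.032 ± 0.11 (adjusted p = 0.880).

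Of 18 measured transcription factors that have been linked to paraoxonase promoters, 1 was lower and 0 higher at 611 mg/kg. This count is near what the 7.46% of all genes called gives. The gene was Ppard, a lipid-sensing nuclear receptor gene, which fell by 0.69 ± 0.13 at 76.5 mg/kg (limma, adjusted p = 0.0316), fell by 0.63 ± 0.13 at 153 mg/kg (adjusted p = 0.0312) and fell by 0.62 ± 0.13 at 611 mg/kg (adjusted p = 0.00875). At 305.5 mg/kg it gave -0.48 ± 0.13 (adjusted p = 0.0650). The first call was lost without vehicle rat 1, 3, 4 or 5, 76.5 mg/kg rat 2 or 153 mg/kg rat 1, the second without those vehicle rats or any rat at 153 mg/kg, and the third without 611 mg/kg rat 2. Averaged over the 4 doses, Ppard gave -0.61 ± 0.095 (limma, adjusted p = 0.0012), where 4.01% of genes were called. For that average the list held at least 1 called member in all 29 alternatives. Sp1 gave 0.041 ± 0.11 at 611 mg/kg (adjusted p = 0.847), Ahr -0.31 ± 0.14 (adjusted p = 0.180), Srebf2 -0.0013 ± 0.10 (adjusted p = 0.997) and Pparg 0.51 ± 0.18 (adjusted p = 0.0952).

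Other hydrolases of lactones and phosphate esters stood at 2 of 8 measured members higher and 0 lower at 611 mg/kg, against 7.46% of all genes called (median 0.099). Lactb2, a metallo-beta-lactamase-fold nuclease gene, rose by 0.63 ± 0.15 (limma, adjusted p = 0.0178), and Bphl, a hydrolase of amino acid esters, rose by 0.47 ± 0.097 (adjusted p = 0.00818), and each lost its call without 611 mg/kg rat 2. Rgn, the regucalcin lactonase, gave -0.29 ± 0.089 (adjusted p = 0.0603), and Pter, the phosphotriesterase-related gene, -0.14 ± 0.10 (adjusted p = 0.431). Among serine esterases, which organophosphates inhibit, 3 of 14 were higher and 0 lower at 611 mg/kg, against 7.46% of all genes called (median 0.075). Ces2c, a carboxylesterase, rose by 2.80 ± 0.16 (adjusted p = 1.99e-08), or 6.97-fold, where Pon3 gave 1.18-fold. Ces2c was also called at the lower doses, with 1.30, 1.38 and 2.31 in order of dose. Nceh1, a cholesterol ester hydrolase, rose by 1.21 ± 0.27 (adjusted p = 0.0123), lost without 611 mg/kg rat 3. Its rise at 76.5 mg/kg was larger, 1.58 ± 0.27 (adjusted p = 0.0193), a call lost in 5 of 30 alternatives. At 153 and 305.5 mg/kg Nceh1 was not called (0.54 and 0.63, adjusted p = 0.452 and 0.304). Bche, butyrylcholinesterase, rose by 0.55 ± 0.15 (adjusted p = 0.0300), lost without vehicle rat 1 or 4 or 611 mg/kg rat 2 or 3.

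**Figure D5:**
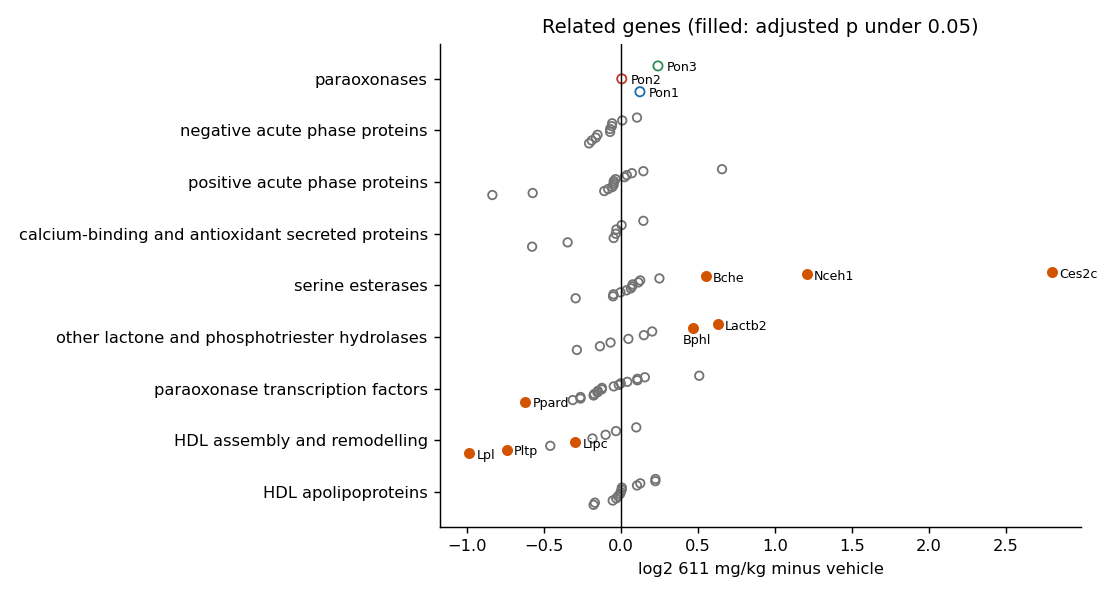
Log2 difference of 611 mg/kg from vehicle (horizontal axis) for each measured member of 8 lists of related genes and for the paraoxonases (rows). Filled points passed the test at adjusted p under 0.05. The paraoxonases lie between 0.0053 and 0.24, and Ces2c at 2.80 is the farthest point.

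Secreted liver proteins that share other traits with the paraoxonases showed no calls at 611 mg/kg, where 7.46% of all genes were called. For lists of 7 to 14 members a count of 0 is near what that share gives. In the list of calcium-binding and antioxidant plasma proteins 0 of 7 passed the limma test (median -0.033, 2 with an unadjusted p under 0.05). Among positive acute phase proteins 0 of 14 passed (median -0.047) and among negative ones 0 of 10 (median -0.070), with 2 and 3 at an unadjusted p under 0.05. Of all 14217 genes 3434 had such a p at this dose. Hepatocyte markers had 0 of 11 members called at any of the 4 doses. In order of dose 0.267%, 0.746%, 2.22% and 7.46% of all genes were called. The mean log2 value of these markers ran from 13.98 to 14.05 in vehicle rats and from 13.94 to 14.09 at 611 mg/kg.

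Among markers of other liver cells, endothelial, stellate, red cell and cholangiocyte lists held called members at 611 mg/kg (7.46% of all genes), and macrophage, lymphocyte and neutrophil lists held none. Of 7 endothelial markers 5 were lower at 611 mg/kg (limma, median -0.43), and their mean log2 value ran from 8.79 to 8.87 against 9.20 to 9.43 in vehicle. Of 10 stellate cell markers 2 were lower, with 7.20 to 7.27 against 7.51 to 7.82, and of 3 red cell markers 2 were lower, with 7.98 to 8.69 against 9.26 to 9.46. Macrophage markers had 0 of 8 called, with 9.36 to 9.57 against 9.47 to 9.96, and lymphocyte markers 0 of 8, with 5.83 to 5.90 against 5.89 to 6.10. Of 5 cholangiocyte markers 1 was higher and 1 lower, and of 3 neutrophil markers none was called. Their part in the paraoxonase values was not tested.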

How the data were processed

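Liver RNA of each rat was measured on 1 rat genome array, and the deposited log2 values were made by the authors with RMA (background correction, quantile normalization and a summary per probe set), per the submitters' processing notes; which program ran it is not given in the sources used here. Signal files were not analysed here. Groups and amounts came from the labels. Of 31099 probe sets, 57 were controls, 20826 carried 1 gene symbol in the platform annotation of 2016, 436 several and 9780 none. Each of 14217 genes was read from its brightest probe set, a choice among several for 4525 of them, and no filter on signal was used. Limma 3.58.1 in R 4.3.3 fitted every gene over the 17 arrays with 1 mean per group (or a slope over group rank), eBayes with trend, and Benjamini-Hochberg adjustment within each comparison. All doses share the 5 vehicle rats, so their differences are correlated. Within-array differences between members were tested by exact permutation of treated and vehicle labels, two-sided, adjusted over 6 tests. The scripts were tested on simulated data.

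The members and the gene lists were chosen with earlier results of these data known. Named genes were all members, the 5 genes with the highest correlation to each and 3 after group means were taken off, the called members of each list where 5 or fewer were called at any dose, and the nearest 3 named genes on each side of the paraoxonases; further list members are given as background and were named after their values were seen. Listed genes that no single-symbol probe set names were not analysed here. Replicate numbers were not used as pairs, since after group means were taken off rats of the same number in other groups correlated at a mean r of 0.019, over 0.1 in 10 of 30 pairs. Rats of another number in other groups correlated at a mean r of -0.0065, over 0.1 in 20 of 84 pairs. Alternatives covered the probe set per gene, the filter on dim genes, scaling, weights, variance moderation, the arrays in the fit, a replicate block, the GAPDH covariate and the dose scale.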

Additional observations from a re-analysis of the deposited data

How the results depend on the processing

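The 2 separations over all treated rats, Pon1 minus Pon2 (0.14 to 0.19 over 21 alternatives) and Pon2 minus Pon3 (-0.30 to -0.24 over 21), kept their direction and their call in every alternative run. Of 912 values of the 33 paraoxonase results under an alternative, 842 kept direction and call, 26 lost a call, 9 gained one and 35 changed sign, all 35 of the latter from uncalled values. The cause of these changes was not tested unless the setting itself shows it.

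The Pon3 slope (0.057, adjusted p = 0.0493) ranged from 0.050 to 0.063 with 1 rat left out. At the same 0.057 its call was lost with the mean over probe sets (adjusted p = 0.0521), all probe sets (adjusted p = 0.0629), eBayes without trend (adjusted p = 0.0728), robust eBayes (adjusted p = 0.0532) and a threshold of 0.01. It was also lost with median centring (0.049), without the 3 arrays that stood apart (0.050), with the GAPDH covariate (0.052), per 100 mg/kg of dose (0.036), without the 611 mg/kg group (0.055) and without the vehicle group (0.049). With the replicate number as a block it was 0.058 (adjusted p = 0.149).

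Pon3 at 611 mg/kg (0.24) was called with repeated quantile normalization (0.26), array weights (0.22) and these 2 groups alone (0.24), and ranged from 0.20 to 0.28 with 1 rat left out. The mean over the doses was called with array weights (0.14). Repeated quantile normalization also made calls of Pon1 minus Pon3 over all treated rats (-0.15) and of Pon1 minus Pon3 (-0.20) and Pon2 minus Pon3 (-0.30) at 611 mg/kg.

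Signs changed for these uncalled values. Pon1 at 76.5 mg/kg became 0.040 with the mean over probe sets, 0.013 with array weights and 0.025 without the 3 arrays, and ran from -0.058 to 0.018 with 1 rat left out. With the mean over probe sets Pon1 became -0.0090 at 153 mg/kg, -0.049 from 76.5 to 153 mg/kg, 0.091 from 153 to 305.5 mg/kg and -0.011 from 305.5 to 611 mg/kg. Median centring turned the steps from 153 to 305.5 mg/kg to 0.054 for Pon1, 0.0034 for Pon2 and 0.024 for Pon3, and that of Pon1 from 305.5 to 611 mg/kg to -0.015. Repeated quantile normalization turned the last 2 Pon1 steps to 0.0036 and -0.0048. Pon2 at 611 mg/kg became -0.042 with median centring, -0.038 with repeated quantile normalization and -0.023 with the replicate block, and ran from -0.0088 to 0.028 with 1 rat left out. The Pon2 slope became 0.0036 with the replicate block, 0.0073 per 100 mg/kg and 0.062 without the vehicle group, and ran from -0.0088 to 0.0085 with 1 rat left out. With 1 rat left out Pon3 at 76.5 mg/kg ran from -0.018 to 0.14. From 153 to 305.5 mg/kg Pon1 ran from -0.041 to 0.027 and Pon3 from -0.13 to 0.026. Besides the Pon3 slope, the replicate block changed no call of a paraoxonase.

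Counts of all called genes moved more than the members did. They ranged over the alternatives from 4 to 696 at 76.5 mg/kg (38), 29 to 398 at 153 mg/kg (106), 120 to 1114 at 305.5 mg/kg (316), 330 to 1884 at 611 mg/kg (1060) and 5 to 1649 for the slope (958).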
